A study of Homo sapiens with 2 samples.

Results

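The stretches described here are 334 dense runs of peak summits in the ZMYND8 binding profile of parental MDA-MB-231 mammospheres. Their members were chosen by the positions of the parental summits, by joining neighbours that lay at most 5000 bp apart, and keeping runs of 10 or more. The runs held 5101 of the 45924 parental summits (11.1%), and the knockout list, which the rule did not use, held 385 summits. Chromatin immunoprecipitation and sequencing (ChIP-seq) was done with 1 library from ZMYND8 knockout spheres and 1 from parental spheres, labelled wildtype. Both came from MDA-MB-231, an established line from a triple-negative breast cancer, grown as spheres in MammoCult medium. Chromatin of both was made with an enzymatic kit, sonicated and precipitated with the same antibody against ZMYND8, and the KAPA Hyper kit was used for the libraries. How the knockout was made, and whether it is 1 clone, was not stated in the sources used here.

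ZMYND8 is a chromatin reader. Its bromodomain, PHD finger and PWWP domain contact modified histone tails and DNA, and its MYND domain contacts partner proteins. It has been described at active promoters and enhancers, where it can take part in both activation and repression of transcription. Close groups of peaks are a familiar feature of ChIP-seq of such factors at gene-rich, active chromatin, where neighbouring promoters and enhancers lie near each other.

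A summit is the position of the highest signal in a called peak, on the human build hg19, and its score is the authors' −log10 p or q value, where a higher value marks a stronger call. Neither read depth nor the control library is stated in the sources used here. Scores depend on both, so they rank summits within a list and are not a change in binding between lists. With 1 library per group, replicate error could not be had for any comparison of genotypes, and the 95% intervals below are exact binomial (Clopper-Pearson) intervals that cover counting error only. Summits in the same run share one stretch of chromatin and are not independent of each other.

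Transcript models were at hand for 419 sampled genes, from one set made on hg19 and one whose build is not stated, and a gene is named at a run only from these. Of these, 12 overlapped a dense run, 8 of them protein-coding. Sequences before the starts of 3 of the 12 are shown because summits of a dense run lay within 1 kb of those starts and were the highest scoring of the 12. They are RefSeq sequences of GRCh38.p14, read 5′ to 3′ on the strand of the gene. Capitals mark matches to the AP-1, TEAD, ETS and GC box letters below.
ENO1-AS1 (chr1:8878687-8878834, plus strand): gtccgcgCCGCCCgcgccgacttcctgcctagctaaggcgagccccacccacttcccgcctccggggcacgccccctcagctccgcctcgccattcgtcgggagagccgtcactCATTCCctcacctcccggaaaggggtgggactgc
FKBP5 (chr6:35728584-35728833, minus strand): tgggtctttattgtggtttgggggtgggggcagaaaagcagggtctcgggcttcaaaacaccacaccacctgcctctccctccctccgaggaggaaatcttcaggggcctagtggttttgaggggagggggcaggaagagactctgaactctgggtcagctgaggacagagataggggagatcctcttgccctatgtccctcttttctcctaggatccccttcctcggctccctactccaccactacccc
CTXN1 (chr19:7926136-7926385, minus strand): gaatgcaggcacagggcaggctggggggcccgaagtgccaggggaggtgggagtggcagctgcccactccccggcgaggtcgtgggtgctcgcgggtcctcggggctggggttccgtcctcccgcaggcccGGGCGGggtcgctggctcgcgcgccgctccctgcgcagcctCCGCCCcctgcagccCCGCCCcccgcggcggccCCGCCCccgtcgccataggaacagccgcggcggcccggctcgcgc

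The letters searched and marked, on both strands, were TGAGTCA and TGACTCA for AP-1, GGAATG for TEAD, CCGGAAGT for ETS and GGGCGG for the GC box. CCCTC, for the core of the CTCF motif, was searched too and is not marked. The ENO1-AS1 sequence is the bases between its start and that of ENO1 on the other strand, and the other two are the 250 bases before the start. The FKBP5 window had 0 matches to the marked motifs and a GC content of 57.6%, beside a median of 58% over 35116 RefSeq promoter windows. The CTXN1 window held 4 GC boxes at a GC content of 80%, and 42.6% of all promoter windows of 250 bases held at least 1. The ENO1-AS1 window held 1 GC box and 1 TEAD match, which 36.6% and 6.99% of all windows of that length held. The CTCF core letters had 5 matches in the FKBP5 window, 2 in ENO1-AS1 and 0 in CTXN1. At least 1 such match was held by 66.6% of windows of 250 bases and 52.1% of those of the ENO1-AS1 length. A match describes the letters only, and the summits themselves were not read as sequence, since no genome of their build was used here.

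FKBP5, which encodes a co-chaperone of the glucocorticoid receptor, was crossed by 2 dense runs and carried 20 dense-run summits among its 33 parental summits. The run at its start, in 6p21.31 between positions 35687795 and 35705796 of chromosome 6, held 15 summits in 18.0 kb. Scores there ran between 2.28 and 18.2 with a median of 8.41, among the 5 highest run medians. Its highest summit lay 161 bp inside the gene from the start. Its next 4 scored 14.3, 12.4, 12.3 and 10.02, and all lay before that start, outside the transcript model. The other run, between 35563291 and 35576691 inside the gene, held 14 summits with a median score of 5.56 and a highest score of 29.1. The knockout list held 0 summits in either run, as in 294 of all 334 dense runs.

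The run in 1p36.23 between 8922111 and 8939288 of chromosome 1 held 10 summits over the miRNA gene MIR6728 and the antisense gene ENO1-AS1. Both are listed beside ENO1 in the RefSeq table, and that listing does not show whether MIR6728 overlaps it. From their starts, 148 bases apart on opposite strands in GRCh38.p14, ENO1-AS1 and ENO1 run away from each other. ENO1 encodes the glycolytic enzyme alpha-enolase. The run's scores were uneven, since its median was 3.79 and its last summit, at 8939288, scored 21.7. A second summit, 376 bp before the ENO1-AS1 start, scored 12.4. The ENO1 start on the other strand lay nearer, 148 bases before the ENO1-AS1 start in GRCh38.p14, so this summit was on the ENO1 side of it. The knockout list held 1 summit in this run, at 8939136 with a score of 13.2, which lay 152 bp from the parental summit of 21.7.

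MIR1204, a miRNA gene, lay under a run of 15 summits in 8q24.21, with a median score of 5.14 and a highest score of 20.2. No summit lay in MIR1204 itself, and the highest within 1 kb of its start scored 7.77. MIR1204 is listed beside PVT1 in the RefSeq table, and that listing does not show whether MIR1204 and PVT1 overlap. PVT1 is a long noncoding RNA gene next to MYC. The knockout list held 1 summit there, at 128806914 of chromosome 8 with a score of 8.52, and its parental partner 52 bp away scored 15.7.

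BCAR1 encodes an adaptor protein of integrin signalling. A run of 20 summits in 16q23.1, 27.0 kb long, lay wholly within it, and its median score was 4.35 and its highest 8.63, with no summit of 10 or more. MED24 encodes a subunit of the Mediator complex, and it held 11 of the 16 summits of a run in 17q21.1, with a run median of 2.93. CTXN1 lay in a run of 19 summits in 19p13.2, whose highest summit, scoring 15.9, was 631 bp inside the gene from its start. The runs at BTD, which encodes the enzyme biotinidase, at EPN1, which encodes an endocytic adaptor, and at DYNLT4, SLURP1 and LINC01714 had highest scores between 6.70 and 8.87. Of these run tops, only that of the BTD run lay inside the named gene. The highest summits inside the genes scored 8.22 in BTD, 4.71 in EPN1, 6.70 in DYNLT4, 4.71 in SLURP1 and 7.77 in LINC01714. None of these 8 runs, the BCAR1, MED24 and CTXN1 runs included, held a knockout summit. The same was true of 294 of all 334 dense runs. Of the 107 genes of 9 lists (AP-1, YAP/TAZ-TEAD, TGF-beta, mesenchymal and stem, luminal, glucocorticoid response, ZMYND8 partners, sterol and blood cell genes), 6 were among the sampled genes. Of these 6, 1, FKBP5, lay on a dense run. The other list genes, ZMYND8 itself among them, were not placed against the runs. CTBP2, a corepressor gene, held 28 parental summits but no dense run.

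The dense runs varied widely in size. The median run held 13 summits over 16.6 kb, 62 runs held 20 or more (1684 summits in all), and 16 runs held 30 or more. Lengths ran between 4.88 and 81.9 kb, with 34 runs under 10 kb and 11 of at least 40 kb. All runs together spanned 6.36 Mb, which is 0.206% of hg19. Neighbouring summits inside a run lay a median of 955 bp apart, and 51.8% of the 4767 gaps were between 500 and 1500 bp. The share of gaps under 500 bp was 18.2%. Density ran between 0.403 and 2.05 summits per kb, with a median of 0.817.

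**Figure D1:**
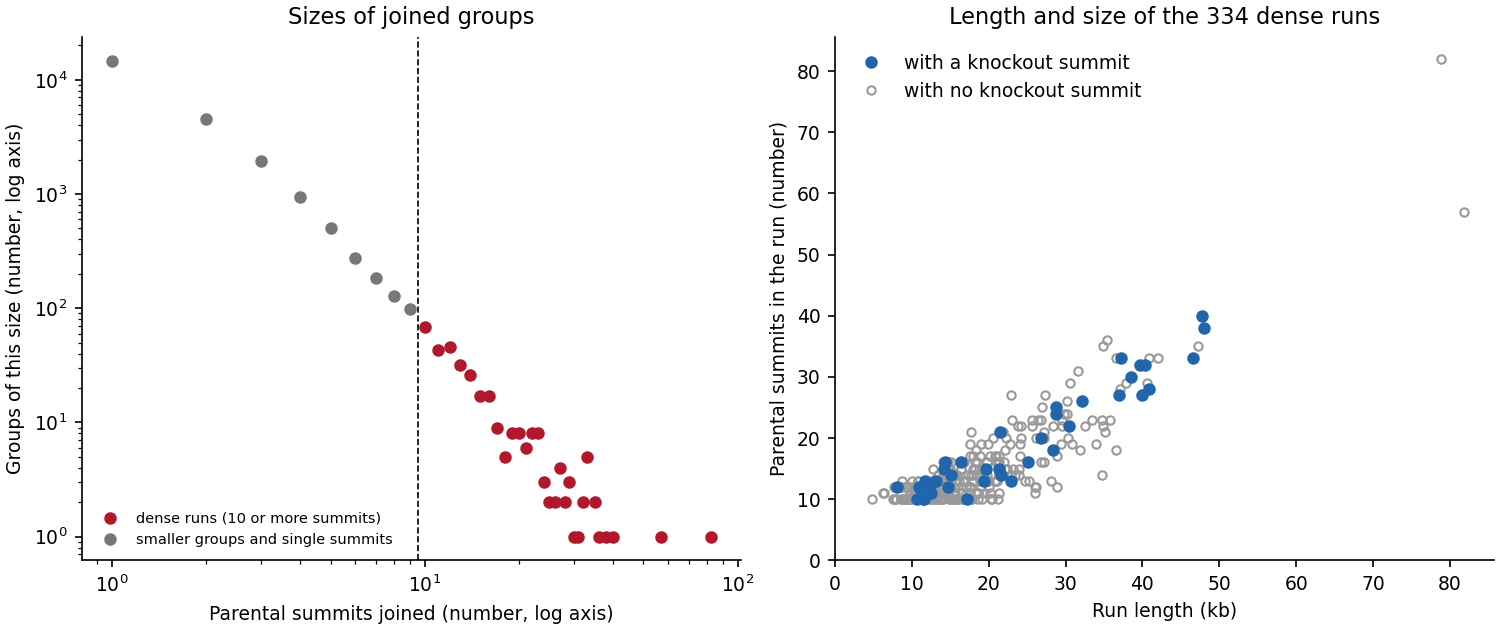
Left, number of groups of joined parental summits (vertical, log axis) by the number of summits in the group (horizontal, log axis), with dense runs in red and smaller groups in grey. Right, summits per dense run against run length in kb, 1 point per run, with runs that held a knockout summit filled blue and the others open. Most of the 334 runs lie under 20 summits, and the run of 82 summits stands at 78.9 kb.

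The runs with the most summits lay near the end of the long arm of chromosome 8. In 8q24.3 a run between 144987479 and 145066343 held 82 summits in 78.9 kb, and a run between 145626305 and 145708161, the longest of all at 81.9 kb, held 57. The run of 82 had a highest score of 18.9, a median of 4.71 and 7 summits of at least 10. The run of 57 had a highest score of 8.87 and a median of 3.79, equal to that of the whole list. The knockout list held 0 summits in either, as in 294 of all 334 dense runs. Next came 2 runs in 20q13.33 that lay 10.2 kb apart, with 40 and 38 summits. The other runs of the 10 largest were in 7q32.3 (36 summits), 19q13.2 (35), 12q24.31 (35 and 33), 5q35.1 (33) and 20q11.21 (33). The runs of 33 in 12q24.12 and 22q13.31 tied with the last 3 and had lower top scores.

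The densest runs were short. A run of 10 summits in 6p21.1 took 4.88 kb, or 2.05 summits per kb, and its highest score was 5.68. The next densest were in 20q13.13 (1.75 per kb), 17q22 (1.72), 19p13.11 (1.55) and 22q13.1 (1.54). In the 22q13.1 run the lowest of 12 scores was 5.68, the value that bounds the highest scoring 25% of the parental list. It was thus made of calls from that set alone, while the 6p21.1 run reached that value at its top.

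Scores are given as a description, since the parental list also chose the runs. The median score was 4.60 in dense runs and 3.79 in the rest of the list. A score of at least 10 was reached by 9.37% of dense-run summits, 8.04% of those in groups of 5 to 9, 6.73% in groups of 2 to 4 and 3.73% of single summits. Dense runs still held many weak calls: 43.5% of their summits lay at or under the median of the whole list, against 54.8% of the rest. Within a run, the highest summit scored a median of 2.54 times the run median, with a range of 1.21 to 28.9 times. In 214 runs (64.1%) at least 1 summit reached 10, in 42 at least 1 reached 20 and in 3 at least 1 reached 50. The highest summit was spread along the run much as the summits were: it lay in the outer 10% at either end in 28.4% of runs, where 27.2% of all dense-run summits lay.

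A run in 3p21.31 carried the highest scoring summit of all dense runs, at 45106859 of chromosome 3 with a score of 150.5. Its next highest of 16 summits scored 12.4 and its median was 5.20. A run of 21 summits in 8q24.3, between 145099725 and 145117448, had a top of 59.7 and a median of 3.79, and 2 summits reached 10 in it, as in the 3p21.31 run. The run in 16q24.2 held 32 summits with a top of 66.3, a second of 26.8 and a median of 4.60, and 7 of them reached 10. The runs with the highest medians, in 2p11.2 (11.25), 5q32 (8.87), 6p21.31 (8.41), 2q37.3 (8.37) and 20q11.21 (7.92), had tops between 13.6 and 30.1. Between 3 and 11 summits reached 10 in these 5 runs.

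**Figure D2:**
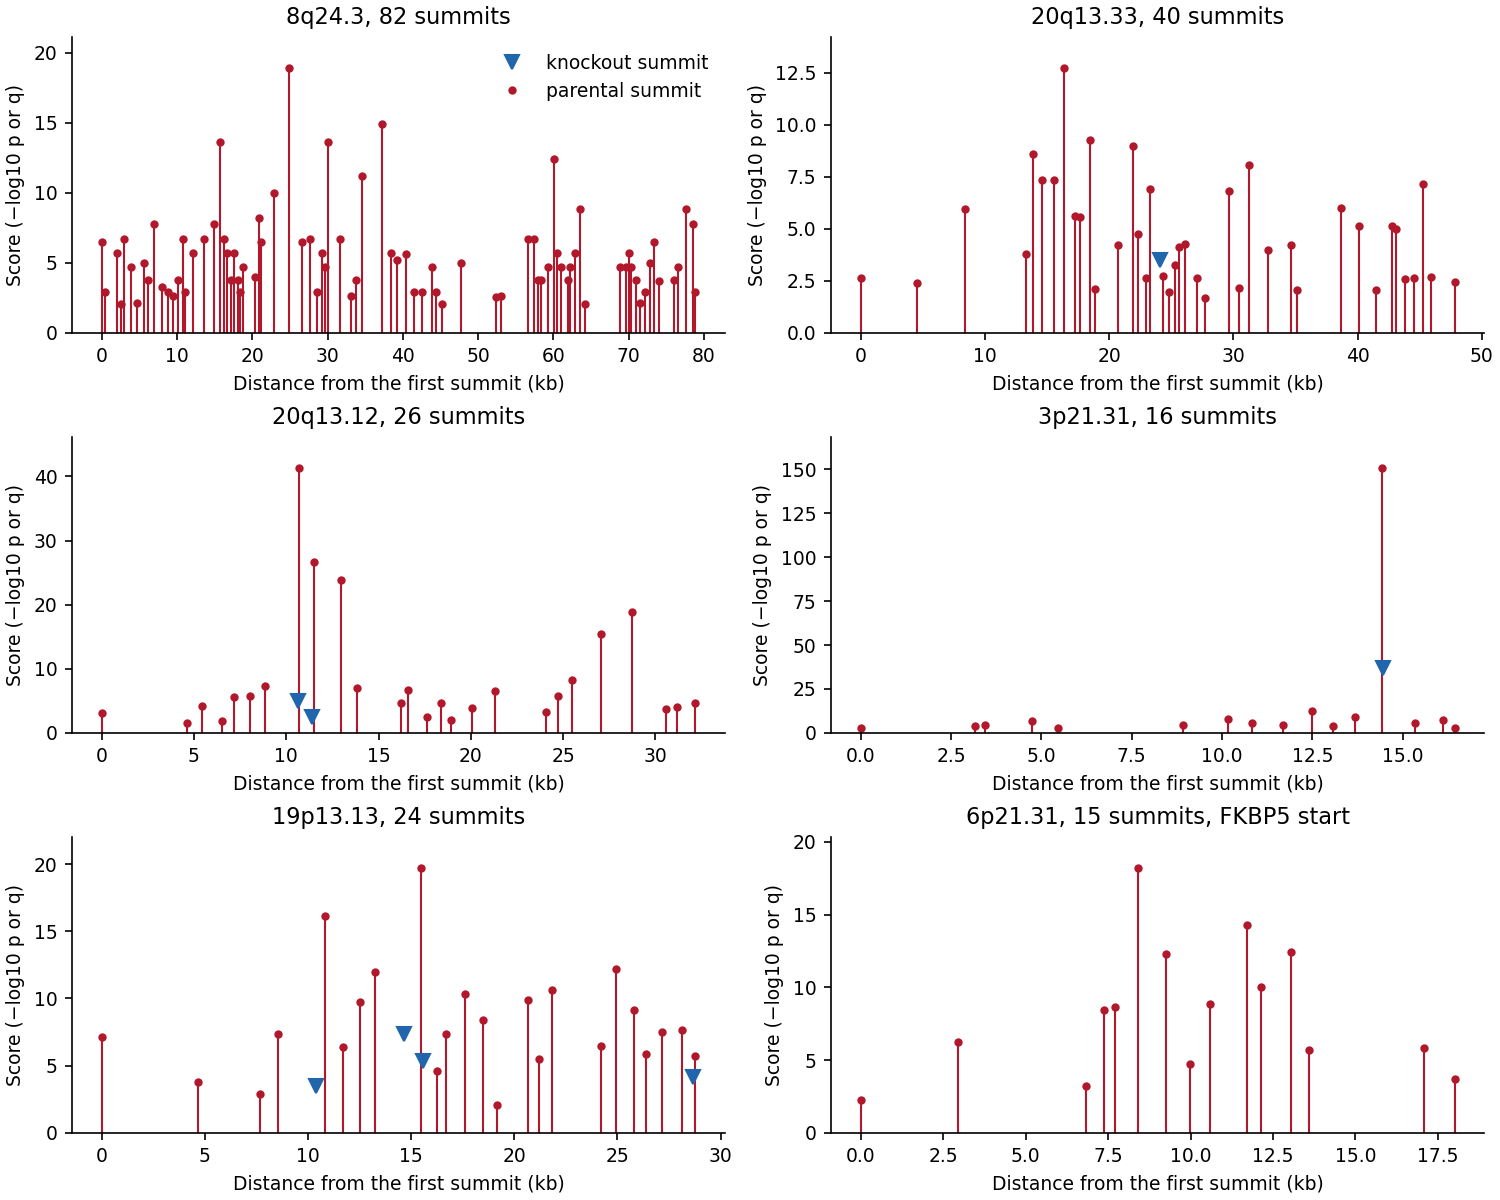
Summits of 6 dense runs, with distance from the first parental summit (kb, horizontal) against score (−log10 p or q, vertical, a scale of its own in each panel). Knockout summits are blue triangles and parental summits red stems. The 3p21.31 run has 1 summit of 150.5 among scores of 12.4 and less, the run at the FKBP5 start has 5 summits of 10.02 or more and no triangle, and the 19p13.13 run has 4 triangles.

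The dense runs lay on 21 chromosomes, and chromosomes 13, X and Y had none. Chromosome 8 held 44 runs and 15.7% of dense-run summits, against 5.84% of the whole list. Chromosome 19 had the most runs for its length, 40 runs or 67.6 per 100 Mb, and 12.5% of dense-run summits against 6.52% of the list. Chromosomes 11 and 17 held 34 and 31 runs, with 9.61% and 8.33% of dense-run summits against 6.01% and 6.26% of the list. Chromosome 20 held 24 runs and 7.998% of dense-run summits, against 4.10% of the list. The share of a chromosome's parental summits that lay in dense runs was 29.9% on chromosome 8 and 21.7% on chromosome 20, and the median over chromosomes was 7.48%.

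**Figure D3:**
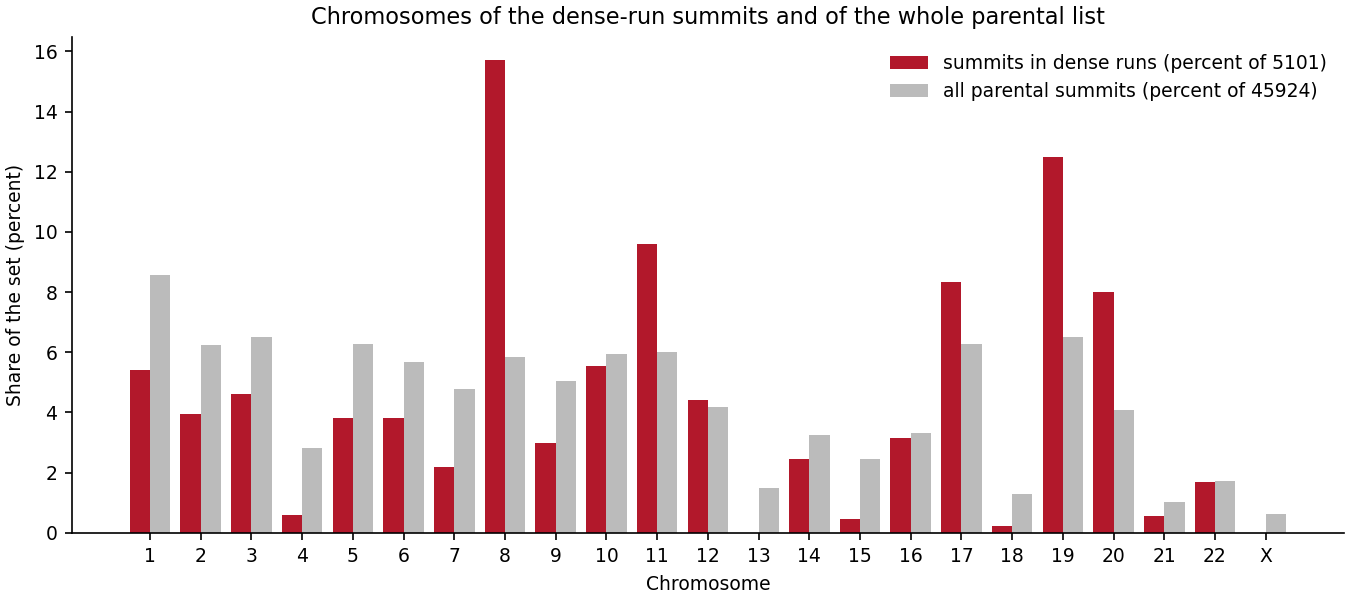
Share of each set of parental summits (percent, vertical) by chromosome (horizontal), with dense-run summits in red and all parental summits in grey. The red bar of chromosome 8 stands at 15.7% beside a grey bar of 5.84%, and chromosomes 13 and X have no red bar.

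Band 8q24.3 alone held 35 runs and 678 of the 5101 dense-run summits. Of the band's 1236 parental summits 54.9% lay in dense runs, which covered 13.0% of its length, and their median score was 3.81. The runs stood side by side there. Between 144800486 and 145168617 of chromosome 8, 6 runs with 170 summits filled 50.7% of 368.1 kb, and between 145609825 and 145776232, 4 runs with 111 summits filled 84.9% of 166.4 kb. The bands with the next most runs were 17q25.3 (14 runs, 216 summits), 19p13.2 (12 runs, 216 summits), 19p13.11 (7 runs, 107 summits) and 19p13.3 (7 runs, 100 summits). In all, 164 bands held a run, 105 of them a single one, and 117 runs (35.0%) lay within 100 kb of another.

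Chromosome ends and light bands held more than their share. Of dense-run summits 33.1% lay within 5 Mb of a chromosome end, against 17.0% of the rest of the list, and such stretches make up 7.58% of chromosomes 1 to 22 and X. Giemsa-negative bands, which are typically rich in genes, held 70.7% of dense-run summits and 63.0% of the rest, and make up 42.4% of the length. The darkest bands held 1.47% of dense-run summits, 4.98% of the rest and 16.4% of the length. Band 8q24.3 lies at a chromosome end, and without it the shares within 5 Mb of an end were 22.8% of dense-run summits and 16% of the rest.

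Few summits of the dense runs had a partner in the knockout list. A knockout summit lay within 200 bp of 40 of the 5101 dense-run summits, or 0.784% (0.561 to 1.07), beside 0.636% of all parental summits (292 of 45924). The share was 0.704% (0.526 to 0.922) in groups of 5 to 9 summits, 0.685% (0.572 to 0.814) in groups of 2 to 4, and 0.488% (0.382 to 0.614) of single summits. The interval of the dense runs held the share of the whole list and overlapped that of every smaller class. This overlap does not show that the shares are alike, and the whole list includes the dense-run summits. The knockout list put 50 of its 385 summits (13.0%, 9.80 to 16.8) inside a dense run widened by 500 bp at each end, where 11.1% of the parental list lay.

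Counted by run, 40 of the 334 dense runs held a knockout summit, or 11.98% (8.70 to 15.9), beside 1.33% of all groups of any size (315 of 23709). The same share was 3.86% for groups of 5 to 9 summits, 1.92% for groups of 2 to 4 and 0.583% for single summits. Dense runs are longer, and per length the classes were closer: the widened spans held 7.47 knockout summits per Mb in dense runs, 6.31 and 6.50 in the middle classes and 5.83 around single summits. These spans are unlike in kind. Around single summits they are almost wholly the 500 bp added at each end, and in dense runs mostly the stretch between summits. The 40 runs with a knockout summit had a median of 15.5 summits, 21.4 kb and a top score of 19.7, against 12.5 summits, 16.3 kb and 11.18 for the 294 runs without.

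Partners were set against parental score, which differs between dense runs and the rest of the list. Of summits scoring 20 or more, 14 of 55 in dense runs had a partner (25.5%, 14.7 to 39.0), against 71 of 242 elsewhere (29.3%, 23.7 to 35.5). Without band 15q24.2 the share elsewhere was 24.6% (55 of 224). Between 10 and 20 the shares were 2.84% (1.47 to 4.90) in dense runs and 3.61% (2.86 to 4.49) elsewhere, and between 5 and 10 they were 0.657% and 0.662%. Between 3 and 5 they were 0.114% (2 of 1752) and 0.180% (27 of 14990). Under a score of 3 they were 0.148% (2 of 1348) and 0.106% (15 of 14215). The intervals of dense runs and the rest overlapped in all 5 score classes, which does not show that the shares are alike.

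**Figure D4:**
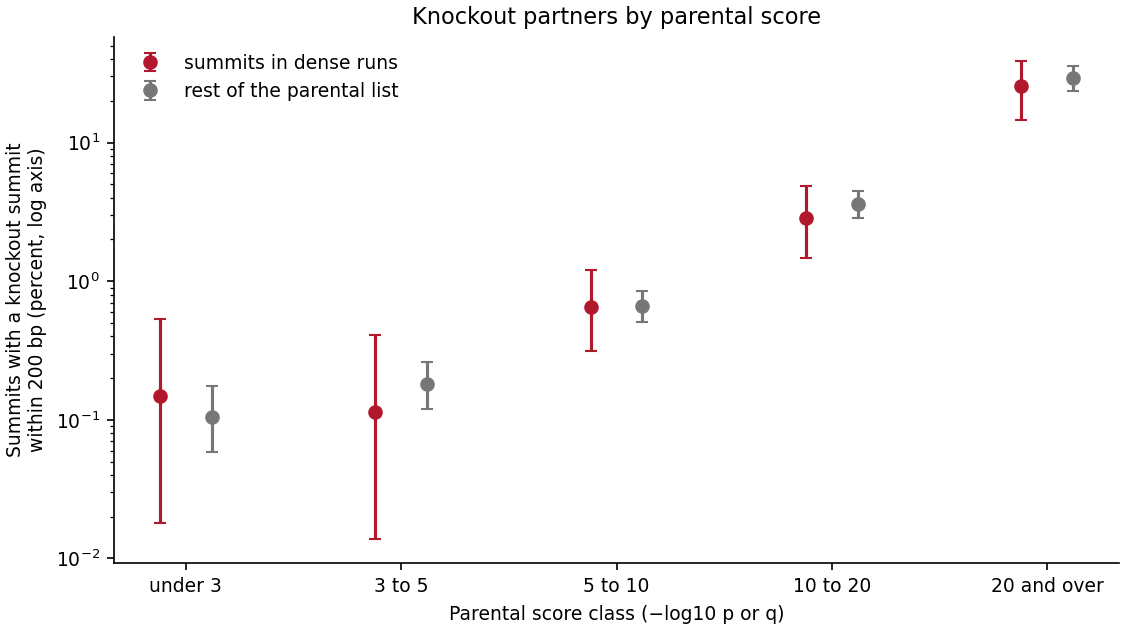
Share of parental summits with a knockout summit within 200 bp (percent, vertical, log axis) by parental score class (horizontal), with dense runs in red and the rest of the list in grey. Bars are exact binomial 95% intervals for counting error only. The dense-run points stand at 0.148% under a score of 3 and 25.5% at 20 and over, and the intervals of both sets overlap in every class.

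The knockout summits in dense runs sat mostly at the strongest parental calls of their run. Of the 50, 40 lay within 200 bp of a parental summit, 19 of these at the highest summit of the run and 32 among its 3 highest. The knockout summits' own scores had a median of 4.70 with a range of 1.90 to 37.1, and 4 reached 10. Knockout summits outside dense runs had a median of 4.65.

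The 4 that reached 10 were in 3p21.31, 8q24.3, 1p36.23 and 11q13.1. In 3p21.31 the knockout list had a summit of 37.1 at 45106882, 23 bp from the parental summit of 150.5. In 8q24.3 the knockout list had 13.28 at 145733990, 33 bp from a parental summit of 27.6 that led a run of 32. In 11q13.1 the knockout list had 10.3 at 65244892, 26 bp from a parental summit of 18.6 in a run of 22. In each of the 4, the 1p36.23 run at ENO1-AS1 included, the parental partner was the highest or the next highest summit of its run.

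Most of the 40 runs held a single knockout summit, and 7 held more. The run in 19p13.13 between 13936563 and 13965342 had the most, 4, with scores of 3.51, 7.33, 5.37 and 4.13. Of these, 2 lay within 200 bp of a parental summit, 82 and 107 bp away, and the others 421 and 848 bp away. A run of 26 summits in 20q13.12 had knockout summits of 5.003 and 2.48, at its highest parental summits of 41.2 and 26.7. Whether this run lies at the ZMYND8 gene itself was not tested. Some partners stood at weak parental calls instead, as in the 20q13.33 run of 40, where a knockout summit of 3.49 lay 190 bp from a parental summit of 2.73.

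Strong parental runs were also present among the 294 of 334 dense runs with no knockout summit. The 8q24.3 run with a top of 59.7 and the 2p11.2 run with the highest median, 11.25, held 0 of the 385. The depth of the libraries was not at hand, and its part in the number of knockout summits was not tested.

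The threshold of 10 summits is a line through a continuous range. The 99 runs of 9 summits had a median length of 10.1 kb, a median top score of 9.75, and 5 with a knockout summit. The 69 runs of 10, just inside, had 12.3 kb, 8.87 and 4. The rule did not use score, and a 14q11.2 group of 9 summits between 24584125 and 24592452 of chromosome 14 had a median score of 50.4 and lay outside by 1 summit. In 15q24.2, gaps over 5000 bp split 19 summits into groups of 5, 7, 5, 1 and 1, all outside, and each group held as many knockout as parental summits.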

How the data were processed

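The authors' deposited lists gave a position and a −log10 p or q value for each summit, with a separate list for each library. Which of p or q it is was not stated. The submitters' processing notes list MACS2 2.0.10, Bowtie2 2.2.3, FastQC 0.11.2, Picard 1.127 and hg19, without settings. The calling threshold, duplicate handling and depth were not stated there, and the part of depth in the length of the lists was not tested. Grouping followed the genotype label.

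Positions are 1-based. Summits at most 5000 bp apart were joined, and runs of 10 or more were kept. A partner was a knockout summit within 200 bp, and a run held a knockout summit inside it or within 500 bp. The joining and counting steps were tested on simulated lists. Runs named were the 10 with the most summits, the 5 longest, the 5 densest, the 5 with the highest median, the 5 with the highest summit and the 10 with the most knockout summits, 31 in all. Ties in the number of summits went to the higher top score, and ties in the number of knockout summits to the higher knockout score. The 14q11.2, 15q24.2 and gene examples were chosen after their values were seen. Members and lists were chosen with earlier results of these data known.

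Bands came from circlize 0.4.16, lengths from GenomeInfoDb 1.38.1, and transcripts from example sets in pyranges 0.1.4, whose build is not stated, and GenomicFeatures 1.54.1 (hg19). Neither set is known to be random. Symbols and promoter sequences are RefSeq's, of GRCh38.p14. The planned gene overlap of all runs, the full gene list counts and the sequence of the runs would take a genome and annotation of hg19, and were not run. Software was matplotlib 3.10.9, scipy 1.17.1, numpy 2.4.6, pandas 2.3.3 and Python 3.11.15. With 1 library per group, libraries were compared without a test. The names of the deposited lists carry a replicate number, and whether other replicates exist is not known here.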

Additional observations from a re-analysis of the deposited data

How the results depend on the processing

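Of 38 alternative values 18 moved, mostly counts that the setting changes by its construction. A count was said to move beyond 1.5 times its value, and a share or a median outside its own 95% interval. Runs and their summits numbered 155 and 2070 with a joining gap of 2500 bp, 543 and 8905 with 10000 bp, and 118 and 2606 with at least 15 summits per run. With at least 8 summits there were 560 runs of 7008 summits. With summits at or above the list's median score alone there were 114 runs of 1585 summits, and with the highest scoring 25% alone 18 runs of 237. The share of dense-run summits with a knockout summit was 0.510% within 100 bp, 1.10% within 500 bp and 1.86% within 1000 bp, and 5.44% (26 of 478) for scores of at least 10, an alternative added after seeing the data. The share of runs with a knockout summit was 19.5% (23 of 118) for runs of at least 15. The median score was 4.15 with the 10000 bp gap and 4.47 as the median of run medians. Without 8q24.3, also added after seeing the data, 299 runs and 4423 summits were left, with shares of 0.769% and 12.04%. Leaving out 15q24.2 changed nothing, since no dense run lay there. No paired analysis was possible because there was a single library in either group, and no replicate could be left out.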

Other observations

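When the same joining was applied to the highest scoring 25% of parental summits alone (scores of at least 5.68), 18 runs of 10 or more were found. By construction each lay inside 1 of the 334 dense runs, since summits joined here are also joined in the full list. The largest lay in 8q24.3, with 24 of the 82 summits of its dense run, followed by 20q11.21 with 21 of 33, 19p13.13 with 18 of 24, 20q13.33 with 16 of 38 and 20p11.21 with 14 of 21. In 22q13.1 all 12 summits of the dense run were in this set. Chromosome 20 held 5 of the 18, more than any other chromosome. The run at the FKBP5 start kept 11 of its 15 summits, with a median score of 8.87.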
